A study of Mus musculus with 48 samples.

Results

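The comparison described here is between the livers of mice labelled Bmal1 knockout (KO) and of littermate controls (WT) at collection time 12 h. It was chosen by the labels for genotype and time, which give 4 KO and 4 WT libraries, 8 of the 48 in the series. All mice were C57BL/6, are described as male and 4 to 6 months old, were raised on a cycle of equal light and dark, and spent 36 h in constant darkness before they were killed in darkness. KO mice carried the floxed allele of Bmal1 (Bmal1 f/f) and Cre driven by the aP2 promoter (aP2-Cre, also called Fabp4-Cre), which is used to delete genes in fat cells. The labels call the WT mice littermate controls and do not state their alleles. The deletion was therefore aimed at adipose tissue while liver was measured, and counts per gene do not measure the floxed stretch apart from the rest. The comparison asks which liver genes differ with the genotype at a time when the Bmal1 gene itself is near its lowest level. The other 5 times (0, 4, 8, 16 and 20 h) hold 21 WT and 19 KO libraries and appear below only beside the 12 h values.

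The mammalian clock is a transcriptional feedback loop. BMAL1, which is encoded by Arntl, pairs with CLOCK or NPAS2 and activates genes through E-box sequences, among them the Per, Cry and Nr1d genes and Ciart, Bhlhe40 and Bhlhe41. The PER and CRY proteins then repress their own activators, and the receptors encoded by Nr1d1 and Nr1d2 repress Arntl and Npas2 through RORE sequences, at which ROR receptors activate. In liver the loop drives the PAR bZIP factors DBP, TEF and HLF and through them many metabolic genes, while feeding and hormones reach the same genes by other routes.

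No gene passed the test for a difference between KO and WT at 12 h. edgeR's quasi-likelihood test called 0 of 13646 genes (0%), and the lowest Benjamini-Hochberg adjusted p was 0.0673, for Aim1l. At an unadjusted p under 0.05 there were 600 genes, 4.4% of those tested, 176 with a higher and 424 with a lower level in KO. DESeq2 on the same genes called 3 (0.022%): Aim1l (log2 change −3.44, adjusted p = 0.000531), Pxdn (0.88, adjusted p = 0.0204) and Dusp1 (−1.86, adjusted p = 0.0355). A log2 change here is KO minus WT, with its standard error (SE) after the ± sign, and CPM is the count scaled to a common library size. The median SE was 0.29 and the median half-width of a 95% interval was 0.59 on the log2 scale. That interval is for a single gene without adjustment, and passing the adjusted test over 13646 genes takes a larger change for a typical gene. The 0 calls therefore do not show that changes of this size or larger were absent. The libraries of the groups did not overlap for 443 genes (3.25%), with all 4 KO libraries above all 4 WT libraries for 184 (1.35%) and below them for 259 (1.9%). A test of whether the change at 12 h differed from the mean change at the other 5 times called 0 genes by edgeR and 0 by DESeq2, with 192 at an unadjusted p under 0.05. All genes named below therefore carry values that did not pass edgeR's test at 12 h, and their levels are described library by library.

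Total counts without albumin were 12894426 to 12978832 in the 8 libraries. Xist, which is transcribed from the inactive X chromosome of female cells, had 4988 to 9792 counts in every 12 h library, and Eif2s3y, Kdm5d and Uty of the Y chromosome had 0, whereas the design text describes male mice. The WT libraries of replicates 3 and 4 stood apart from the other 6 on the first principal component (27.7 and 40.6, against −23.7 to 1.08), which held 46.1% of the variance. They also differed in how gene levels followed the GC content of the transcripts. Spearman's rho between a gene's deviation from its mean and its GC content was 0.54 and 0.51 in these libraries, −0.39 and −0.45 in WT replicates 1 and 2, and −0.55, −0.17, −0.36 and −0.20 in KO replicates 1 to 4. Libraries of the other times spanned −0.61 to 0.58. Across genes, the log2 change at 12 h had a rho of −0.53 with GC content, and its median went from 0.14 in the fifth of genes lowest in GC content to −0.36 in the fifth highest. With per-library offsets for this trend, added after it was seen, these medians were −0.02 and −0.03, edgeR called 1 gene (Aim1l, log2 change −3.02, adjusted p = 0.0337) and 527 genes had an unadjusted p under 0.05. Without WT replicates 3 and 4, edgeR called 0 genes and 560 had an unadjusted p under 0.05. The part of the trend in the results below was not tested further, and values with the offsets or without these libraries are given beside many of the results they move.

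**Figure D1:**
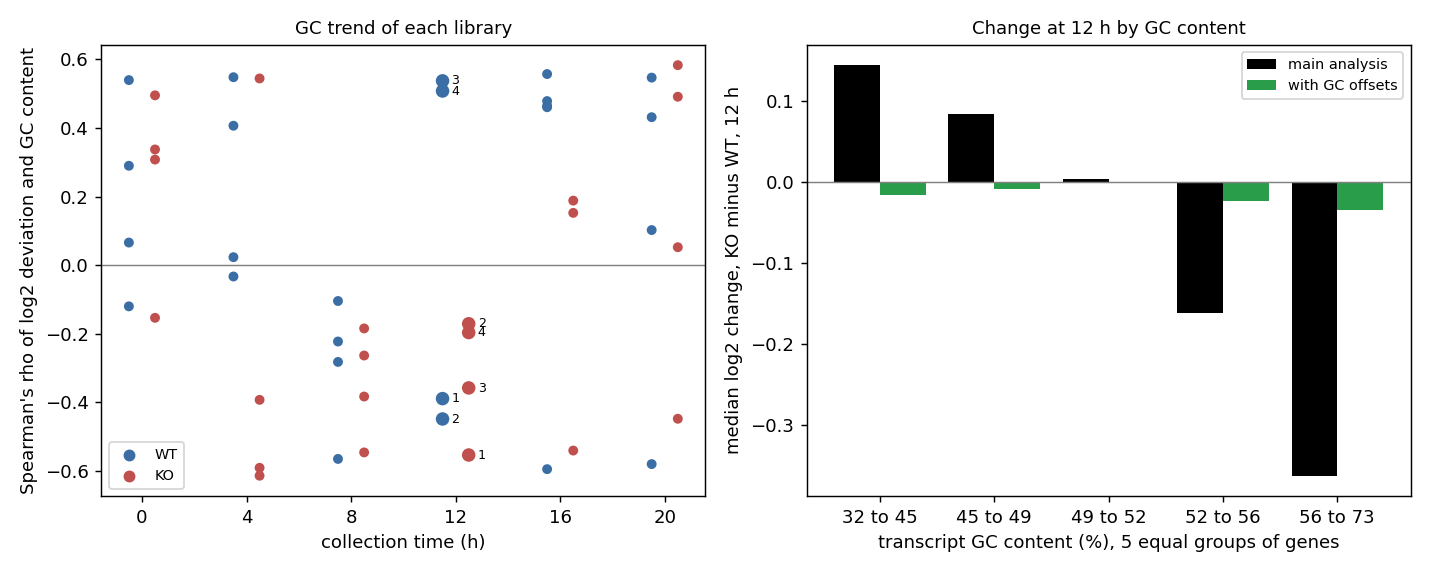
Left, Spearman's rho between each gene's log2 deviation and its transcript GC content (vertical axis) for each of the 48 libraries by collection time in h (horizontal axis), WT in blue and KO in red, with the 12 h libraries drawn larger and numbered by replicate; WT replicates 3 and 4 lie at 0.54 and 0.51 and the other 12 h libraries between −0.55 and −0.17. Right, median log2 change at 12 h in 5 equal groups of genes by transcript GC content in %, going from 0.14 to −0.36 in the main analysis (black) and close to 0 with GC offsets (green).

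Promoter stretches of 4 genes are shown because these genes hold motifs of the loop just described and are among those with the largest differences at 12 h. The windows are RefSeq's, on build GRCm38.p6, and run from 250 bases before to 50 bases after a gene's start. They were searched on both strands for the E-box CACGTG, which is its own reverse complement, the RORE core TAGGTCA and the D-box TTATGTAA, none of which overlaps another in the stretches printed. Each sequence reads 5′ to 3′ on the gene's strand with the motif in capitals.
Ciart, chr3:95882229-95882478, minus strand: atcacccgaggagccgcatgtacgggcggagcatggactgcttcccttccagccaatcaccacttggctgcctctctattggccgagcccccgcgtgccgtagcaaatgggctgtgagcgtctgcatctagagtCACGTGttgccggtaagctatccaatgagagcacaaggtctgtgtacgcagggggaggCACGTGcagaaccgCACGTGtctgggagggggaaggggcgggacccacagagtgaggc
Bhlhe41, chr6:145865421-145865670, minus strand: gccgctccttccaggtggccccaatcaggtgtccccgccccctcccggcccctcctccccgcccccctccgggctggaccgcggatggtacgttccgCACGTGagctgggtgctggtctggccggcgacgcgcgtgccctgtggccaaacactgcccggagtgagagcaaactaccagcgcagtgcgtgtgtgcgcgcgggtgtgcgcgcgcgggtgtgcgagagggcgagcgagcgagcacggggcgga
Dusp1, chr17:26508473-26508722, minus strand: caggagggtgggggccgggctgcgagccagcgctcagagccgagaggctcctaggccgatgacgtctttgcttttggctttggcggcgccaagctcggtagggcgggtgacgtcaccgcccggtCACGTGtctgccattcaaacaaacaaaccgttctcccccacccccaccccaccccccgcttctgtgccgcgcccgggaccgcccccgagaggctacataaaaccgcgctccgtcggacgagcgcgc
Arntl, chr7:113207529-113207558, plus strand, RORE core only: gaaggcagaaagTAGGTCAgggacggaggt
Ciart held 3 E-boxes, at 116, 58 and 44 bases before its start, Bhlhe41 held 1 at 153 bases and Dusp1 1 at 126 bases before it. The RORE core of Arntl lay 30 bases after the start. Windows were matched for 14 of 17 tested core clock genes, and 4 of their 21 windows held an E-box (Bhlhe41, Ciart, Cry1 and Per1), against 9.741% of the 12011 windows of 9354 tested genes. Among 22 windows of 16 clock output genes 4 held an E-box (Lonrf3, Tef and Tspan4), and 6 of 32 windows of 26 immediate early genes did so (Dusp1, Gadd45b, Gadd45g, Klf4, Klf6 and Maff). Of the 10 genes with the lowest p at 12 h, 9 were matched. Of their 9 windows 1 held an E-box (Dusp1), close to the share over all windows, and 0 held a RORE core or a D-box. The RORE core was in 2.081% of all windows, and among the clock genes in Arntl, Leo1 and Nfil3. The D-box was in 0.608% of all windows and in Per3. A match describes these letters only, and none of these windows was measured here.

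The 10 genes with the lowest p at 12 h had differences between 0.88 and 3.43 log2 units in size, and in all 10 the libraries of the 2 groups did not overlap. Both features follow largely from choosing genes by p in these same libraries, and 3.25% of all genes tested did not overlap. Aim1l (mm9 chromosome 4, 133621827 to 133648419), which encodes a protein of the beta/gamma-crystallin family, was at 2.46, 2.99, 10.5 and 3.91 CPM in WT replicates 1 to 4 and at 0.603, 0.666, 0.242 and 0.30 CPM in KO replicates 1 to 4. Every KO library lay well below the lowest WT library, and WT replicate 3 stood above the other WT libraries. The log2 change was −3.43 ± 0.65 (95% interval −4.74 to −2.11). The change was −2.57 without WT replicates 3 and 4. Without WT replicate 1 alone, or without WT replicate 2 alone, Aim1l passed edgeR's test (adjusted p = 0.0401 and 0.0271). It did not pass with any other single library left out, and over all alternatives its adjusted p reached 0.860. Pxdn (mm9 chromosome 12, 30622901 to 30702523) encodes peroxidasin, a haem peroxidase that cross-links collagen IV in basement membranes. Its WT libraries were at 6.96, 7.93, 4.58 and 3.99 CPM and its KO libraries at 9.95, 12.1, 11.6 and 9.61 CPM. The KO libraries were tight and all above WT, with a log2 change of 0.88 ± 0.19 (edgeR adjusted p = 0.192), or 0.53 without WT replicates 3 and 4. Without WT replicate 2 it was 1.06 with an edgeR adjusted p = 0.0271, and no other single library left out made Pxdn pass.

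Dusp1 (mm9 chromosome 17, 26642535 to 26645464), the gene of a phosphatase that switches off MAP kinases, was at 108, 117, 56.1 and 58.2 CPM in WT and at 34.4, 22.3, 22.3 and 14.3 CPM in KO. The WT libraries formed a higher pair and a lower pair, and the highest KO library was still below the lowest of them. The log2 change was −1.86 ± 0.43 (edgeR adjusted p = 0.325), and −2.27 without WT replicates 3 and 4. Rec8, which encodes a cohesin subunit of meiotic chromosomes, had 1.39, 2.02, 2.58 and 1.33 CPM in WT and 0.527, 0.417, 0.161 and 0.450 CPM in KO, a change of −2.20 ± 0.54. Itprip, which encodes a protein that binds the inositol trisphosphate receptor, had a change of −1.58 ± 0.40, from 1.80 to 3.99 CPM in WT and from 0.484 to 1.21 CPM in KO.

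The other genes of the 10 were higher in KO. Mpzl1, a membrane glycoprotein of the myelin protein zero family, was at 0.750 to 2.05 CPM in WT and 3.24 to 5.16 CPM in KO (1.39 ± 0.32). Cldn1, a tight junction claudin of bile canaliculi, was at 18.8, 22.8, 20.2 and 25 CPM in WT and at 30.9, 63.2, 51.5 and 35.7 CPM in KO, with KO replicates 2 and 3 the highest (1.06 ± 0.27). The predicted genes 4930563E22Rik (2.19 ± 0.55) and Gm7592 (3.11 ± 0.80) rested on 0 to 2 counts in each WT library and 3 to 11 in each KO library. The remaining gene, Npas2, belongs to the clock loop and is described with it. The plot of these genes by library shows the gap between the groups in each of the 10, which their choice by p largely fixed.

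**Figure D2:**
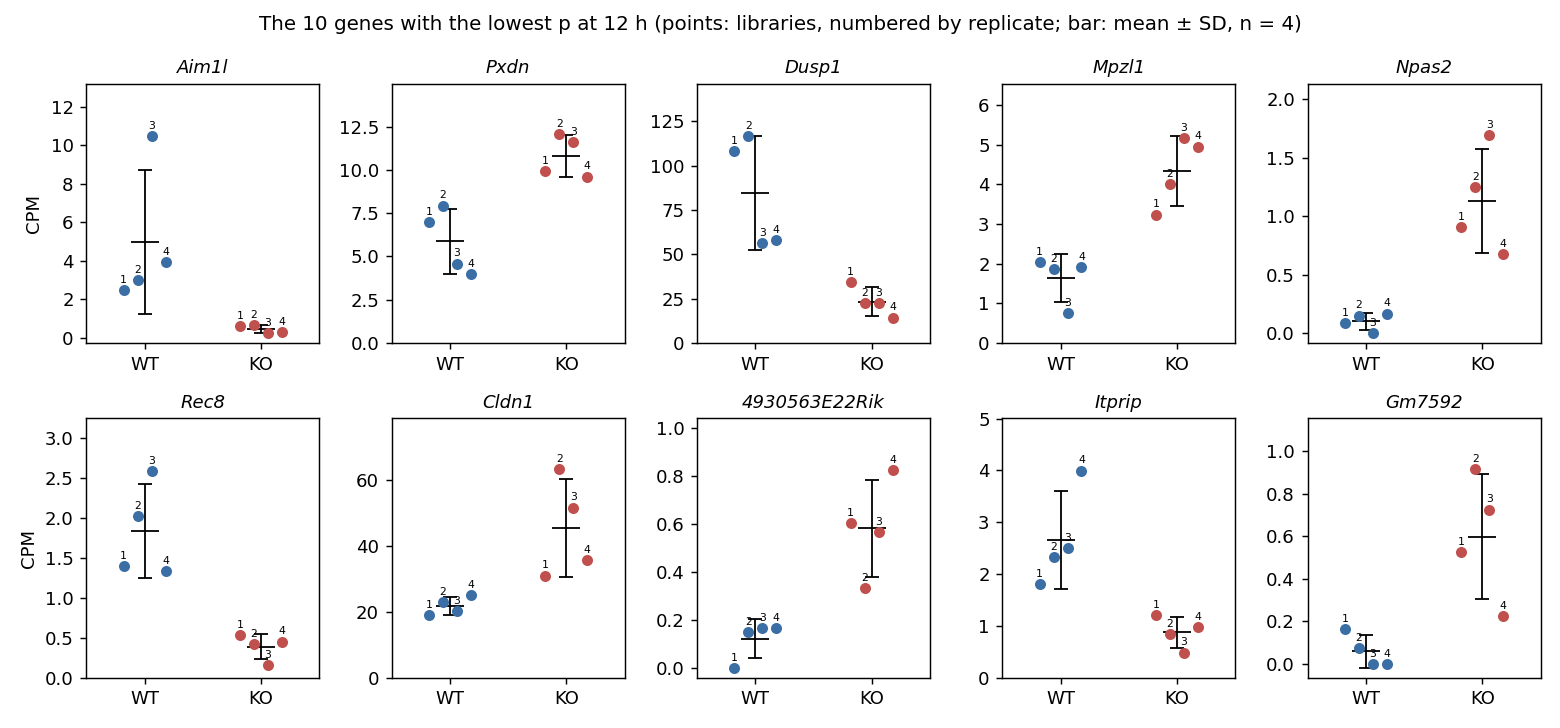
CPM of the 10 genes with the lowest p at 12 h (vertical axes, linear) in the 4 WT libraries (blue) and the 4 KO libraries (red), each point numbered by replicate, with the group mean ± SD (n = 4) in black. In each panel the points of the groups do not overlap, and WT replicate 3 at 10.5 CPM is the highest Aim1l value. The genes were chosen by p from these same libraries.

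Among the activators of the loop, Npas2 and Arntl had the largest differences. Npas2 (mm9 chromosome 1, 39250576 to 39420079), which encodes a partner of BMAL1 related to CLOCK, had 1, 2, 0 and 2 counts in WT replicates 1 to 4 and 12, 15, 21 and 9 counts in KO. These are 0.0819, 0.150, 0 and 0.166 CPM against 0.904, 1.25, 1.69 and 0.675 CPM, so that Npas2 was barely detected in WT and low but present in every KO library. The log2 change was 3.36 ± 0.83 (edgeR adjusted p = 0.481), a size that the few WT counts leave imprecise (95% interval 1.69 to 5.04). The neighbouring times gave 4.07 ± 0.83 at 8 h and 2.89 ± 0.64 at 16 h. At 0 h and 20 h, when WT levels were at 10.5 and 5.59 CPM, the changes were 0.72 ± 0.48 and 0.27 ± 0.49, and at 4 h the value was −1.28 ± 0.51.

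Arntl (mm9 chromosome 7, 120350979 to 120457636) was at 0.819, 1.5, 3.41 and 2.33 CPM in WT and at 1.58, 10.0, 11.5 and 2.25 CPM in KO. KO replicates 2 and 3 were far above all other libraries, whereas KO replicates 1 and 4 lay within the WT range. The log2 change of 1.65 ± 0.43 (edgeR adjusted p = 0.494) was 1.36 without KO replicate 2, 1.18 without KO replicate 3 and 2.42 without WT replicates 3 and 4. At its lowest point in WT, at 8 and 12 h, Arntl averaged 2.14 and 2.02 CPM, and it averaged 16.2 CPM at 16 h. In KO it averaged 3.68, 6.34 and 26.3 CPM at these times. The difference was 0.77 ± 0.43 at 8 h and 0.70 ± 0.39 at 16 h, and −1.14 ± 0.39 at 4 h. Against the mean of the other 5 times, the 12 h change of Arntl was higher by 1.62 ± 0.46, which did not pass (unadjusted p = 0.00115, edgeR adjusted p = 1.00). Clock, the usual partner of BMAL1, was at 24.9, 42.8, 17.2 and 19.9 CPM in WT and at 34.1, 43.2, 53.9 and 32.9 CPM in KO. Its groups overlapped through WT replicate 2, and the change was 0.64 ± 0.34, or 0.27 without WT replicates 3 and 4. Rora, whose product activates Arntl, was at −0.00025 ± 0.33, or −0.56 without WT replicates 3 and 4, and its relative Rorb had 0 counts in all 8 libraries.

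The repressors of the loop, most of them driven through E-boxes, had mainly negative values. Ciart, listed in the table under Gm129 (mm9 chromosome 3, 95682426 to 95686174), represses CLOCK and BMAL1 and is the gene with 3 E-boxes printed above. It was at 42.2, 36.3, 46.7 and 76.6 CPM in WT and at 25.1, 7.41, 8.47 and 25.7 CPM in KO. All KO libraries lay below all WT libraries, and KO replicates 2 and 3, the libraries with the highest Arntl, had the lowest Ciart. The change was −1.60 ± 0.64 (edgeR adjusted p = 0.908), against −0.35 ± 0.62 at 8 h and −1.95 ± 0.72 at 16 h. Bhlhe41, a basic helix-loop-helix repressor also known as DEC2, was at 0.748 to 1.5 CPM in WT and at 0.167 to 0.527 CPM in KO, with no overlap (−1.46 ± 0.65). Per1 was at 62.9, 64.0, 111 and 89.1 CPM in WT and at 49.1, 42.4, 39.4 and 52.2 CPM in KO. The Per1 groups did not overlap, with a change of −0.84 ± 0.60 that was −0.48 with GC offsets and also −0.48 without WT replicates 3 and 4.

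The nuclear receptor gene Nr1d1, which encodes REV-ERBα, was at 9.42, 6.66, 31.98 and 30.04 CPM in WT and at 4.90, 4.00, 5.73 and 13.3 CPM in KO. Its difference rested on WT replicates 3 and 4: the change was −1.48 ± 0.83 with them and −0.21 without them. Nr1d2, its close relative, was at −0.14 ± 0.36, or −0.67 without those libraries. Bhlhe40 (−0.56 ± 0.38), Cry2 (−0.54 ± 0.33), Per3 (−0.25 ± 0.33) and Per2 (−0.20 ± 0.29) had negative values with overlapping libraries. Without WT replicates 3 and 4, Cry2 was at −0.17 and Bhlhe40 at −0.24, and Per2 and Per3 changed sign (0.15 and 0.01). Cry1, whose level peaks later, was at 0.09 ± 0.26. Among the genes that act on PER and CRY proteins, the casein kinase genes Csnk1d and Csnk1e were at −0.36 ± 0.34 and −0.22 ± 0.32 and changed sign without these WT libraries (0.24 and 0.10). The F-box gene Fbxl21 was at −0.07 ± 0.29.

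Of 17 tested core clock genes, 13 had a negative and 4 a positive log2 change, with a median of −0.22, beside 51.9% negative and a median of −0.01 over all genes tested. With single libraries left out the median lay between −0.34 and −0.16. Libraries did not overlap for 4 of the 17 genes, beside 3.25% of all genes, Npas2 above WT and Ciart, Bhlhe41 and Per1 below it. With GC offsets 11 were negative and the median was −0.17. Without WT replicates 3 and 4 the median was also −0.17, and Per2, Per3, Csnk1d and Csnk1e moved from negative to positive. The excess of negative values therefore rested in part on these libraries. At the other 5 times 10 of the 17 were negative and 7 positive (median −0.11).

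**Figure D3:**
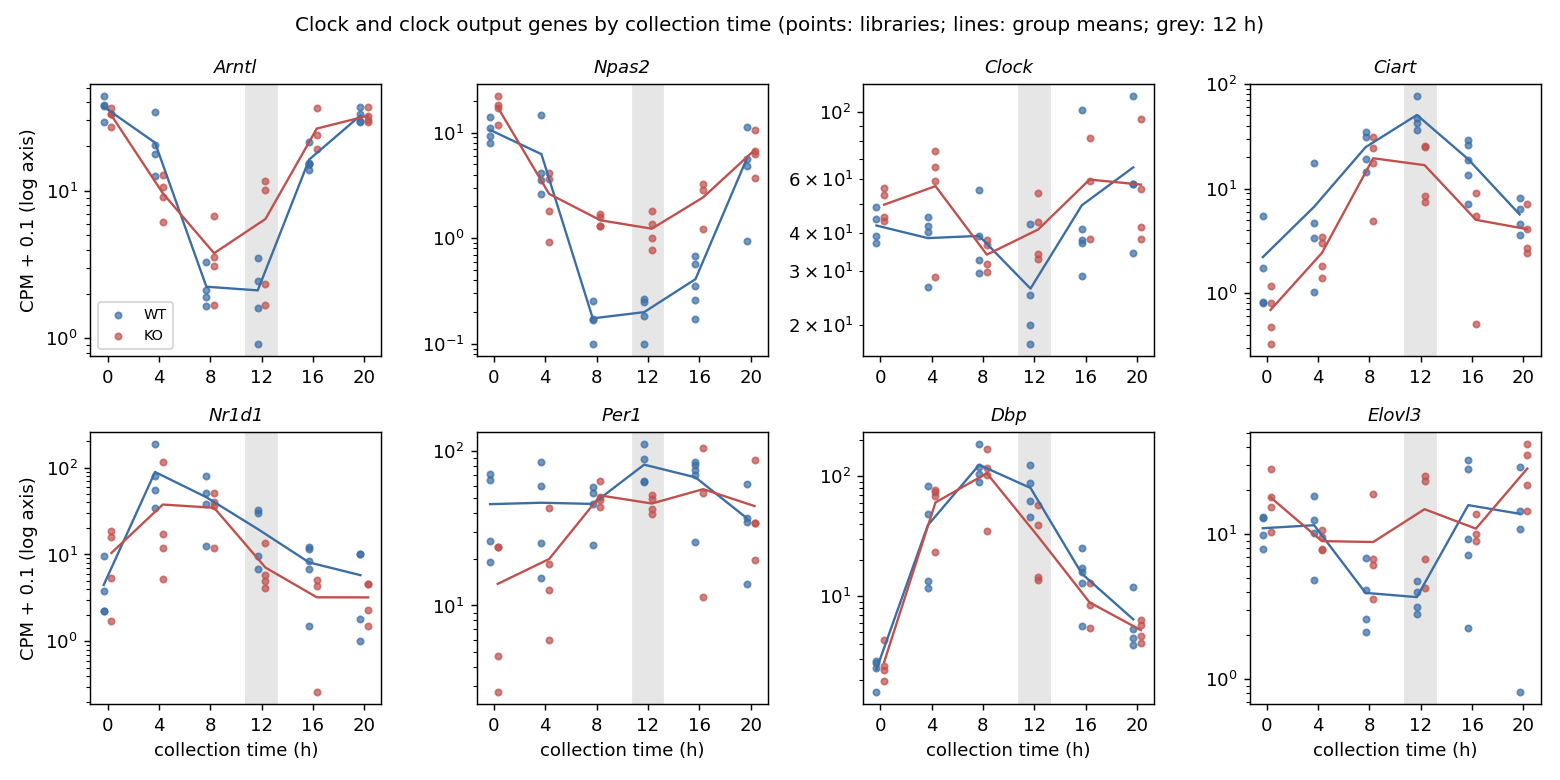
CPM plus 0.1 on a log axis (vertical) by collection time in h (horizontal) for 8 clock and clock output genes, with a point for each library, lines through group means, WT in blue and KO in red, and the 12 h samples on grey. At 12 h all 4 KO points lie above WT for Npas2 and below WT for Ciart and Per1, and for Arntl the 2 upper KO points are replicates 2 and 3, at 10.0 and 11.5 CPM.

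The outputs of the clock gave differences in both directions, and several of them rested on few libraries. Elovl3, a fatty acid elongase under circadian control, was at 3.03, 2.69, 4.66 and 3.91 CPM in WT and at 4.14, 25, 23.1 and 6.68 CPM in KO. KO replicates 2 and 3 again stood apart, while KO replicate 1 lay inside the WT range and KO replicate 4 just above it. Its change was 2.04 ± 0.67, and 1.68 and 1.74 without KO replicate 2 or 3. Dtx4, a ubiquitin ligase of the Deltex family, was also highest in KO replicates 2 and 3, with 4.08 to 5.76 CPM in WT and 5.65, 9.0, 12.3 and 4.65 CPM in KO (0.73 ± 0.24).

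Dbp, the PAR bZIP factor driven directly by BMAL1 and CLOCK, was at 61.8, 45.4, 87.8 and 124 CPM in WT and at 39.2, 14.5, 13.5 and 57.9 CPM in KO. Its lowest values were in KO replicates 2 and 3, and only KO replicate 4 reached into the WT range. The change was −1.35 ± 0.51 at 12 h, −0.23 ± 0.50 at 8 h and −0.80 ± 0.55 at 16 h, and −0.78 at 12 h without WT replicates 3 and 4. Its relatives were closer to WT, Tef at −0.28 ± 0.20 and Hlf at −0.19 ± 0.17. Nfil3, a bZIP repressor at the D-box, was at 0.26 ± 0.43, with 23.2 and 23.7 CPM in KO replicates 2 and 3 and 4.67 and 10.1 CPM in KO replicates 1 and 4, and at 0.84 without WT replicates 3 and 4.

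Alas1 and Por, which serve haem synthesis and electron transfer to cytochrome P450 enzymes, and the deubiquitinase gene Usp2 had changes of −1.04 ± 0.44, −1.06 ± 0.50 and −1.05 ± 0.46. These differences came mainly from WT replicates 3 and 4, with Por at 1202 and 1139 CPM there against 383 and 411 CPM in WT replicates 1 and 2 and 305 to 459 CPM in KO. Without those libraries the changes were −0.23 for Alas1, −0.09 for Por and −0.42 for Usp2. Rgs16, a regulator of G protein signalling, was at 311, 249, 341 and 228 CPM in WT and at 100, 79.0, 164 and 214 CPM in KO. It did not overlap between the groups and kept its size without WT replicates 3 and 4 (−1.02 ± 0.74 and −1.01). Tspan4 did not overlap either, at −0.29 ± 0.20, or −0.03 with GC offsets. The remaining outputs lay between −0.44 ± 0.48 (Mthfd1l) and 0.34 ± 0.38 (Lonrf3): Ccrn4l at −0.39, Tsc22d3 at −0.25, Upp2 at −0.10, Leo1 at 0.08, Nampt at 0.10 and Wee1 at 0.23. Without WT replicates 3 and 4, Lonrf3 and Nampt changed sign (−0.07 and −0.39), Mthfd1l and Wee1 were near 0 (−0.01 and 0.03), and Leo1 and Upp2 were at 0.84 and −0.47. Of the 19 output genes 12 were negative and 7 positive, beside 51.9% negative over all genes, with a median of −0.25 (−0.35 to −0.13 with single libraries left out), and 2 did not overlap, beside 3.25% of all genes.

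Immediate early genes, which are transcribed within minutes of a stimulus, lay lower in KO as a group. Of 31 tested, 28 had a negative log2 change, beside 51.9% of all genes, and the median was −0.59. None of them (0) passed edgeR's test. At an unadjusted p under 0.05 there were 11, all lower in KO, beside 424 lower genes among all 13646. In 11 of the 31 all KO libraries were below all WT libraries, beside 1.9% of all genes. The summed level of the list was 770, 697, 814 and 1125 CPM in WT and 422, 404, 462 and 508 CPM in KO, with no overlap. With GC offsets 25 were negative with a median of −0.41, and without WT replicates 3 and 4 the median was −0.42. At the other 5 times 27 of the 31 were negative, with a median of −0.51.

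Fos and Jun encode the partners of the AP-1 factor. Fos was at 3.36, 3.14, 2.00 and 1.58 CPM in WT and at 0.603, 0.833, 0.323 and 0.600 CPM in KO (−2.08 ± 0.64). Jun was at 23.5, 19.9, 24.1 and 23.2 CPM in WT and at 6.63, 6.50, 14.0 and 11.4 CPM in KO (−1.23 ± 0.55). The WT libraries of Jun lay close together and the KO libraries in a wider band below them. Junb, another AP-1 subunit, was at 15.8 to 29 CPM in WT and 4.35 to 11.1 CPM in KO (−1.59 ± 0.47, or −1.15 with GC offsets). Jund was at −1.82 ± 0.82, or −1.06 with GC offsets. It had 48.4 and 80.9 CPM in WT replicates 3 and 4 against 14.6 and 13.8 CPM in the other WT libraries.

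Egr1, a zinc finger factor induced by MAP kinase signalling, was at 55.4, 24.2, 48.6 and 48.8 CPM in WT and at 2.94, 12.8, 2.74 and 20.4 CPM in KO (−2.18 ± 0.70). Gadd45g, a stress sensor gene, had the largest change of the list, −3.08 ± 0.86, but WT replicate 4 was at 193 CPM against 25.6 to 37.2 CPM in the other WT libraries. Without that library the change was −1.93, and the KO libraries at 7.23 to 12.2 CPM were still below all WT libraries. Zfp36, whose product destabilises AU-rich transcripts, was at 81.6 to 207 CPM in WT and 42.9 to 76.3 CPM in KO (−1.43 ± 0.51, or −0.89 without WT replicates 3 and 4). Btg2 (−1.48 ± 0.47), Csrnp1 (−1.49 ± 0.51, or −1.16 with GC offsets) and Ier2 (−1.08 ± 0.38, or −0.71 with GC offsets) also had no overlap. The list was not uniform: Klf6 (0.20 ± 0.25), Gadd45b (0.13 ± 0.43), Atf3 (0.01 ± 0.43), Mcl1 (−0.05 ± 0.13) and Maff (−0.08 ± 0.43) were near 0. These genes other than Dusp1 and Gadd45g were chosen for naming after their values were seen.

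**Figure D4:**
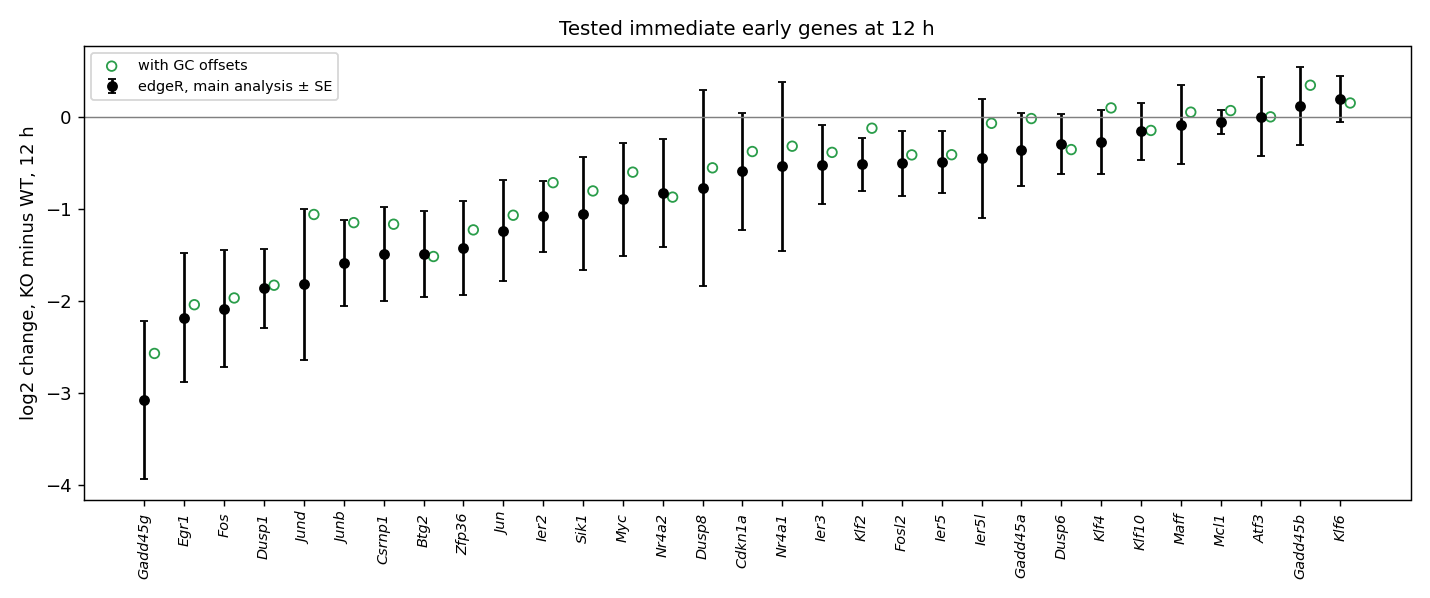
Log2 change at 12 h, KO minus WT (vertical axis), of the 31 tested immediate early genes ordered by size, as the edgeR estimate ± SE (black) and with GC offsets (green circles). The estimates run from −3.08 for Gadd45g to 0.20 for Klf6, and 28 of the 31 black points lie below 0.

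The livers of the other 5 times are separate mice, so their calls can be read at 12 h without shared libraries. Over those times edgeR called 71 genes (0.52% of the genes tested), 27 higher and 44 lower in KO. At 12 h 70 of the 71 had the same sign, with Mpped2 the exception (1.03 ± 0.22 at the other times and −0.33 ± 0.49 at 12 h), beside 72.3% of all genes (65.5% with GC offsets). All KO libraries lay beyond all WT libraries in that direction for 20 of the 71 genes (28.2%), and for 2.82% of all genes. The 27 higher genes had a median log2 change of 0.61 at 12 h and 1.03 at the other times, and the 44 lower genes −0.85 and −0.94. The same 70 of 71 held the sign with GC offsets. These genes were called with earlier results of the series in view, and 13 of the 71 averaged under 1 CPM.

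Several genes described above are also among the 44 lower genes. At the other times these were Fos (−1.96 ± 0.28), Aim1l (−1.83 ± 0.28), Rec8 (−1.74 ± 0.24), Dusp1 (−1.60 ± 0.19) and Jun (−1.18 ± 0.25). Junb (−1.07 ± 0.20), Zfp36 (−0.96 ± 0.23), Csrnp1 (−0.93 ± 0.23) and Mthfd1l (−0.92 ± 0.23) belong to them too. Itprip, Egr1, Jund, Btg2, Ier2 and Gadd45g were not called over those times. Of the 44 lower genes, 6 more are described here, chosen after their values were seen. Timp3, an inhibitor of matrix metalloproteinases, was at 57.2, 58.2, 29.8 and 37.5 CPM in WT and at 36.9, 20.5, 24.7 and 24.9 CPM in KO (−0.77 ± 0.29 at 12 h, −1.09 ± 0.13 at the other times). Its WT libraries split into replicates 1 and 2 above and 3 and 4 below, and KO replicate 1 reached into the lower pair. Cpxm1 (−3.55 ± 0.99), the proteoglycan gene Podn (−1.20 ± 0.52), the protease inhibitor gene Serpine2 (−0.93 ± 0.54, or −0.49 without WT replicate 2) and the matrix Gla protein gene Mgp (−0.50 ± 0.45) overlapped between the groups at 12 h. Cygb, a globin of hepatic stellate cells, did not (−1.03 ± 0.43). The summed level of 14 stellate cell and fibroblast markers was 713, 765, 381 and 290 CPM in WT and 346 to 600 CPM in KO, with 10 of 14 negative and a median of −0.15. This median was unsteady: it was −0.46 without WT replicates 3 and 4, −0.01 without WT replicate 2 and 0.02 with a replicate block at 12 h. In bulk liver, fewer cells of a type and less RNA per cell cannot be told apart.

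Among the higher genes, Cd36, a fatty acid transporter, was at 250, 226, 218 and 197 CPM in WT and at 399, 404, 638 and 468 CPM in KO. The groups were well apart, with a change of 1.10 ± 0.35 at 12 h and 0.67 ± 0.16 at the other times. Ifit1, an interferon-induced gene, was at 8.02 to 9.65 CPM in WT and 13.1 to 20.7 CPM in KO (0.83 ± 0.41, and 0.78 ± 0.18 at the other times). Mup genes of this set were called higher over the other times, but most had wide errors at 12 h. Mup2 was at 0.94 ± 0.72, Mup12 at 0.61 ± 0.92, Mup15 at 0.48 ± 1.07 and Mup17 at 0.54 ± 1.05. Mup-ps14 did not overlap (3.54 ± 0.98), with means of 0.10 CPM in WT and 1.27 CPM in KO. Reads of these near-identical copies may be split between them. The plot of the 71 genes shows most points near the line of equal change.

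**Figure D5:**
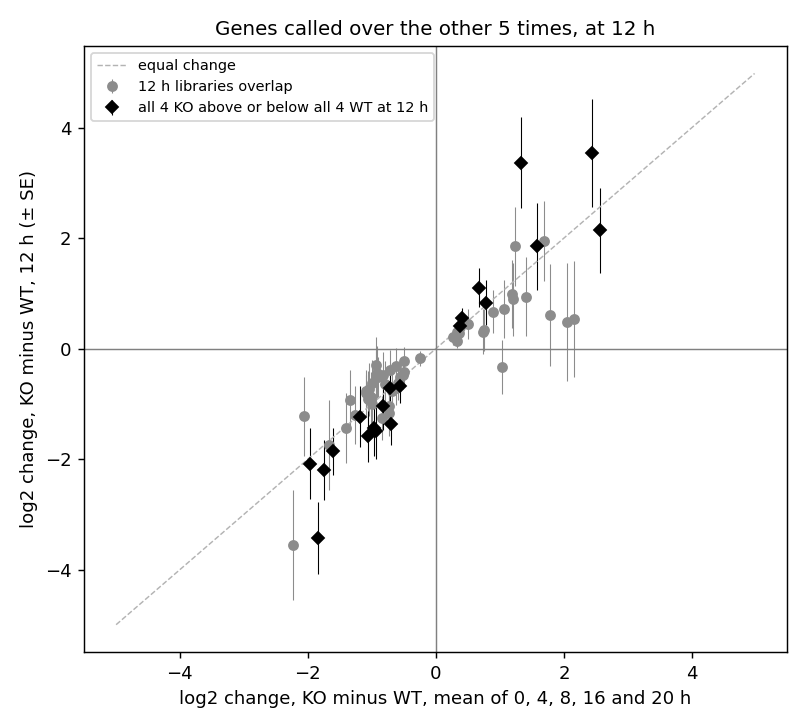
Log2 change at 12 h ± SE (vertical axis) against the mean log2 change of the other 5 times (horizontal axis) for the 71 genes called over those times, with black diamonds for genes whose 12 h libraries do not overlap and grey circles for the others. The dashed line marks equal change, and 70 of the 71 points have the same sign on both axes.

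Lipid genes gave values in both directions. Of 27 PPARalpha targets and fatty acid oxidation genes 22 were positive, with a median of 0.28 (0.08 without KO replicate 3) and 0 past the test. At the other 5 times 24 of the 27 were positive (median 0.10). Pdk4, which restrains pyruvate oxidation in fasting, was at 217 CPM in KO replicate 3 against 13.8 to 47.3 CPM in the other KO libraries and 10.7 to 44.7 CPM in WT. Its change of 1.38 ± 0.69 was 0.15 without that library. Fatty acid synthesis genes were near balance (10 of 18 positive, median 0.02, or −0.06 to 0.14 with single libraries left out), with Scd1 at 0.88 ± 0.48 from 172 to 1035 CPM in WT and 635 to 2005 CPM in KO (0.31 without WT replicates 3 and 4), and Dgat2 at −0.54 ± 0.30. Dgat2 was at 0.08 without WT replicates 3 and 4. The cholesterol synthesis list had 15 of 24 negative and a median of −0.11. It turned with the same libraries: Srebf2, the master regulator of the pathway, was at 128 and 99.9 CPM in WT replicates 3 and 4 against 25.9 and 18.4 CPM in replicates 1 and 2, and its change went from −1.14 ± 0.51 to 0.48 without them. Dhcr7 went from −1.28 ± 0.64 to 0.91, and the list median to 0.38. At the other 5 times 19 genes of the cholesterol synthesis list were positive and 5 negative (median 0.17).

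Glucose genes gave 12 negative values of 20 (median −0.14, or −0.25 to −0.08 with single libraries left out). Pfkfb3, which makes the activator of glycolysis fructose 2,6-bisphosphate, was at 21.0, 22.5, 11.4 and 8.24 CPM in WT and at 10.7, 5.50, 6.13 and 7.58 CPM in KO (−1.08 ± 0.34). Ppp1r3c, a glycogen-targeting phosphatase subunit, was at 32.5 to 55.6 CPM in WT and 45.3 to 102 CPM in KO (0.81 ± 0.32). Bile acid genes had a median of 0.04 with 9 of 16 positive (−0.10 without WT replicates 3 and 4), among them Abcb11 (0.45 ± 0.28, or −0.04 without WT replicates 3 and 4) and, on the negative side, Slco1a1 (−2.21 ± 1.44, or −0.40 without WT replicate 2). Xenobiotic genes had a median of 0.16 with 20 of 32 positive (0.03 without WT replicate 4, 0.05 with GC offsets), including Cyp2b9 (0.41 ± 0.17) and Gsta2 (1.04 ± 0.45, or 0.56 without WT replicates 3 and 4). Of 15 Mup genes 11 were positive, with Mup1 at 1.16 ± 1.10 and Mup2 at 0.94 ± 0.72. Their median of 0.37 was −0.11 without KO replicate 1, 0.01 without WT replicate 4 and 0.16 with GC offsets. Female-biased liver genes had 9 of 15 positive (median 0.13, or −0.03 without KO replicate 1), and Cyp3a16 (3.46 ± 1.51) was at 92.0 CPM in KO replicate 1 and at most 13.8 CPM elsewhere. Male-biased genes had 8 of 14 negative, with C8a at −0.69 ± 0.43. Elovl3, described with the clock outputs, had the lowest p of this list and the opposite sign (2.04 ± 0.67). The median of the list was −0.35. That median was 0.05 without WT replicate 2 and −0.07 without KO replicate 3.

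Stress and hormone lists showed small medians. Fkbp5, a glucocorticoid-induced co-chaperone gene, was at 174, 201, 275 and 208 CPM in WT and at 111, 106, 63.9 and 84.8 CPM in KO. The groups did not overlap (−1.23 ± 0.43), and in the growth hormone and glucocorticoid list 14 of 19 were negative (median −0.26, or −0.43 without WT replicates 3 and 4). Heat shock genes had 14 of 19 positive (median 0.26), with Hsph1 at 0.73 ± 0.31 and Hspa1b at 1.73 ± 0.75, the latter 0.81 without KO replicate 3 at 18.4 CPM. The 22 genes of the ER stress and amino acid response had a median of −0.16 and 12 negative, with Dnajb11 at −0.33 ± 0.19 (−0.02 and −0.06 without WT replicates 3 and 4) and Chac1 at −0.85 ± 0.60. Acute phase genes had 14 of 21 negative (median −0.35, or −0.06 without WT replicates 3 and 4). Lcn2 was at 143 and 291 CPM and Orm2 at 246 and 137 CPM in those libraries, above all others, and their changes of −2.65 ± 1.11 and −2.29 ± 1.03 were −0.93 and −0.58 without them.

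Interferon response genes had 21 of 25 positive and a median of 0.40 (0.38 with GC offsets). In 3 genes all KO libraries were above WT, beside 48.1% positive and 1.35% above over all genes. At the other 5 times 24 of the 25 were positive (median 0.29). Rsad2, an antiviral enzyme, was at 5.40, 5.69, 6.16 and 6.99 CPM in WT and at 8.44, 10.7, 11.2 and 9.53 CPM in KO (0.72 ± 0.33). Of 18 proliferation genes 12 were negative (median −0.20, or −0.11 without WT replicate 3), with Rrm2, a subunit of ribonucleotide reductase, at 5.16 to 10.0 CPM in WT and 2.18 to 5.27 CPM in KO (−1.25 ± 0.40) and the cell cycle kinase gene Cdk1 at −1.04 ± 0.45, or −0.56 without WT replicate 2.

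Markers of cell types were read beside these values. Hepatocyte markers summed to 55140 to 79730 CPM in WT and 58092 to 81757 CPM in KO, with 10 of 13 negative (median −0.10, or −0.26 to −0.04 with single libraries left out). Trf was at −0.38 ± 0.24 and Ass1 at −0.94 ± 0.60, or 0.24 without WT replicates 3 and 4. Although the labels give the cell type as adipocyte, 6 of 12 adipocyte markers were too low to test, among them Adipoq, Lep and Plin1. The adipocyte list's sum of 460 to 885 CPM in WT and 700 to 2449 CPM in KO came largely from Car3, which was at 296 to 711 CPM in WT and 514 to 2332 CPM in KO (1.24 ± 0.73, or 0.69 without KO replicate 2). Lpl, which is also made by other cells, was at 12.0, 16.0, 4.75 and 6.24 CPM in WT and 16.4, 25.7, 29 and 22.2 CPM in KO, just clear of WT (1.26 ± 0.44, or 0.73 without WT replicates 3 and 4).

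Kupffer cell and macrophage markers had 12 of 15 positive (median 0.46, or 0.13 without WT replicates 3 and 4), with sums of 275 to 691 CPM in WT and 456 to 676 CPM in KO. Emr1 was at 0.75 ± 0.51 and Ly6c2 at −1.87 ± 0.95, or 0.23 and −0.89 without these libraries. At the other 5 times 11 of the Kupffer cell and macrophage markers were negative and 4 positive (median −0.04). Endothelial markers summed to 265 to 345 CPM in WT and 283 to 361 CPM in KO (9 of 13 positive, median 0.16), with Vwf at −0.86 ± 0.44 and Fcgr2b at 0.47 ± 0.29. Without WT replicates 3 and 4 the median was −0.01, Vwf was at −0.16 and Fcgr2b at 0.06. At the other 5 times 10 of the endothelial markers were negative and 3 positive (median −0.12). Among the stellate cell and fibroblast markers Hand2 was at −0.64 ± 0.37 and Ecm1 at −0.72 ± 0.50. Bile duct markers summed to 45.1 to 129 CPM in WT and 74.2 to 101 CPM in KO (5 of 6 negative, median −0.44, or −0.22 without WT replicate 4), with Krt7 at −0.62 ± 0.34 and Krt19 at −0.85 ± 0.56.

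Lymphocyte markers stood out in WT replicate 3, where they summed to 425 CPM against 17.9 to 32.9 CPM in the other 7 libraries. Ighm, the heavy chain of IgM, was at 294 CPM there and at 3.92 to 10.9 CPM in the others. Its change of −3.39 ± 1.12 was 0.12 without that library. Cd3e, a T cell receptor subunit, was at 1.5 and 1.25 CPM in WT replicates 3 and 4 and at most 0.328 CPM elsewhere (−2.25 ± 0.76, or −0.32 without those libraries). The lymphocyte list had 10 of 14 negative (median −0.23, or 0.12 without WT replicates 3 and 4). Red blood cell markers summed to 25.5 to 188 CPM in WT and 40.0 to 319 CPM in KO (5 of 5 positive, median 0.36), with Alas2 at 0.36 ± 0.41 and Hbb-b2 at 0.56 ± 0.79. That median was −0.38 without KO replicate 4 and 0.05 without WT replicate 1. Pancreas and adrenal markers were near absent, with sums of 6.91 to 11.8 CPM and 1.83 to 4.91 CPM over the 8 libraries and 6 and 3 markers at 0 in all of them. The testable members were Cela1 (0.32 ± 0.44), Cela2a (−1.17 ± 1.36), Star (−0.51 ± 0.48) and Cyp21a1 (−1.01 ± 1.23). The part of any of these cell types in the differences given above was not tested.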

How the data were processed

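Liver RNA of 48 mice was sequenced, 1 library a mouse. Libraries were TruSeq (version 2) from poly-A RNA with random hexamer priming and 13 PCR cycles, and 2 were run in each HiSeq 2000 lane, per the labels' protocols. The values deposited by the authors are raw read counts for each gene. The submitters' processing notes name CASAVA, STAR 2.4.1d and mm9. No counting rule, strand setting or annotation is stated in these sources, so overlapping genes and near-identical families are uncertain. Totals were nearly equal (12841969 to 13009797), and how this arose is not stated either. The row of albumin, which holds a scaled value, was left out.

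Tests used edgeR 4.0.16 (R 4.3.3). The tool's filter (minimum count 10, minimum total 15) kept 13646 genes and removed 8707. TMM scaling and a quasi-likelihood model with 12 group means over all 48 libraries gave KO minus WT at 12 h, its mean over the other 5 times and the difference of these, with Benjamini-Hochberg adjustment over all genes, a two-sided threshold of 0.05 and SE as the change divided by the root of F. Depth and 4 mice a group limit the precision, and p-values set the difference of group means against the spread between mice. That spread was estimated over the 12 groups of all 48 libraries and shared in part between genes. DESeq2 1.42.0 was an alternative, as were other scalings and filters, a replicate block, the 8 libraries alone and leaving libraries out. GC offsets, added after a trend was seen, came from a lowess curve (span 0.3) on transcript GC content (GENCODE M21, GRCm38), which was matched for 13316 of 13646 genes (97.6%). Principal components used 1000 genes. Scripts were tested on simulated data. Gene positions are in mm9 as the table gives them, promoters in GRCm38.p6 as RefSeq gives them, and positions of the builds are not mixed.

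The genes named are the tested genes of the clock lists (core and output) and the 10 lowest p at 12 h. Also named are the 2 lowest p of each of 28 lists (no member passed). Others were chosen after their values were seen, and these include some members of the 71 genes called over the other times. The comparison, the lists and the rule were chosen with earlier results of these data known. Some genes of the core clock list are not reported here, and the counts and medians of that list leave them out.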

Additional observations from a re-analysis of the deposited data

Results flagged for a closer look

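Single libraries of 4 that lay far from the other 3 were sought among 129 genes in both groups at 12 h. For normally distributed values, chance alone meets this check in about 1 in 20 groups. That rate need not hold here, since the values were CPM and some of the genes were chosen by p from these same libraries. The check marked 18 of 258 (6.98%). In WT replicate 3 these were Ighm (294 CPM, others at most 8.01), the light chain gene Igkc (110 CPM, others at most 12.7), Mpzl1 (0.750 CPM, others at least 1.87) and Krt19 (0.999 CPM, others at least 2.00). In WT replicate 4 they were Gadd45g (193 CPM, others at most 37.2), Trf (5079 CPM, others at most 3566) and Tspan4 (130 CPM, others at most 95.5). WT replicate 1 was marked for Cyp2b9 (694 CPM, others at most 618) and 4930563E22Rik (0 CPM, others at least 0.150), and WT replicate 2 for Hsph1 (79.8 CPM, others at most 49.6).

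Among KO libraries, replicate 3 was marked for Pdk4 (217 CPM, others at most 47.3), Gadd45g (12.2 CPM, others at most 7.66) and Mup1 (1.45 CPM, others at most 0.50), and replicate 2 for Bhlhe41 (0.167 CPM, others at least 0.484) and Dgat2 (379 CPM, others at most 301). Replicate 1 was marked for Cyp3a16 (92.0 CPM, others at most 13.8), and replicate 4 for Maff (20.9 CPM, others at most 6.25) and Per2 (88.8 CPM, others at most 67.5).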

How the results depend on the processing

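The count of 0 genes at 12 h became 3 with DESeq2 and 1 with GC offsets, and lay between 0 and 2 when single 12 h libraries were left out (2 without WT replicate 2, 1 without WT replicate 1, 0 without each other one, with 361 to 1211 at an unadjusted p under 0.05). The count of 71 over the other times became 36 with no filter on low counts, 151 with DESeq2 and 140 without 3 libraries of other times with unusual gene content. The 70 of 71 genes with the same sign became 68 to 71 with single libraries left out, and 59 of 59 in a fit of the 8 libraries alone, whose filter kept 59 of the 71. The 443 genes without overlap became 2544 without WT replicates 3 and 4 and 653 to 1162 with single libraries left out, where fewer libraries make overlap rarer. Of 108 named genes over 2025 gene and alternative pairs, 1975 kept sign and call, 43 changed sign and 7 newly passed. In all, 88 genes never changed sign. The cause of the sign changes was not tested. Under GC offsets the sign changed for Per2 (0.0334), Csnk1e (0.0467) and Nampt (−0.0130). Without WT replicates 3 and 4 it changed for Ighm (0.11), Srebf2 (0.48), Dhcr7 (0.91), Dgat2 (0.0823), Abcb11 (−0.0425), Ass1 (0.24), Csnk1d (0.24), Lonrf3 (−0.0701), Per3 (0.0129), Per2 (0.15), Csnk1e (0.10) and Nampt (−0.39). Rora, at −0.00025, was at 0.0198 with library totals only and 0.00403 without the 3 unusual libraries.
With single 12 h libraries left out, the genes that changed sign had ranges of Ighm (−3.77 to 0.12), Hbb-b2 (−0.14 to 1.06), Per2 (−0.33 to 0.0431), Nfil3 (−0.0286 to 0.56), Nr1d2 (−0.39 to 0.13), Cry1 (−0.12 to 0.19), Nampt (−0.0843 to 0.33), Leo1 (−0.16 to 0.36), Fbxl21 (−0.26 to 0.14), Upp2 (−0.56 to 0.10) and Rora (−0.24 to 0.33).
What the replicate numbers of the labels stand for is not stated. Deviations of same-numbered WT and KO libraries at 12 h correlated at 0.40, −0.22, 0.23 and 0.34, and those of differently numbered libraries at −0.38 to 0.44. These values do not settle whether the numbers mark pairs, and the main analysis did not take them as pairs. With a replicate block the edgeR count at 12 h was 0 (429 at an unadjusted p under 0.05), also in a fit of the 8 libraries alone (685), and Rora was at 0.18 and 0.17. KO replicates 3 and 4 correlated best with the WT library of their own number, and KO replicates 1 and 2 did not. With 4 mice a group the number of mice limits the precision: a typical 95% interval spans 0.59 log2 units to either side.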
